A study of Macaca mulatta with 64 samples.

Results

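Start-proximal positions are the transcription start positions that cap analysis of gene expression (CAGE) placed at, or a short way inside, the annotated 5′ end of a rhesus macaque gene. Each row of the table names a detected start position, the gene to which it was assigned and its value in every library. A row was counted as start-proximal when it lay 0 to 500 nt inside the annotated start, measured along the strand of the gene, and less than a 0.8 share of the gene length from that start. Rows of the mitochondrial chromosome were left out. The rule held for 34596 of 159168 nuclear rows (21.7%), or of 160389 rows in all, and these positions fell in 6588 of 13238 genes (49.8%).

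The study collected 8 brain regions from healthy macaques of 1, 4, 10 and 20 yr. The regions were the cerebellar cortex (CB), hippocampal CA1 and dentate gyrus (DG), and 5 neocortical areas, namely prefrontal (PFC), posterior cingulate (PCC), temporal (TC), parietal (PC) and occipital cortex (OC). Each region, age and sex gave 1 library, 64 in all. Every age had 2 animals of each sex, all 8 regions were taken from each animal, and the study describes its RNA-seq libraries, from the same 64 samples, as 1 for each pair of matched age and sex. The libraries of the same age and sex are called an animal group, so each region was represented by 8 animal groups and each age by 2.

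CAGE captures the capped 5′ end of polyadenylated RNA, and the first base of the read marks where RNA polymerase II began transcription. Core promoters of mammals are broadly of 2 kinds. Focused promoters, often with a TATA box, begin transcription at a single base or within a few bases, whereas dispersed promoters, often in CpG islands, use many neighbouring bases, and many brain genes also have alternative promoters far from the annotated start. An annotated start is itself an estimate from older transcript models, so start positions a short way inside it may belong to the same core promoter or to a separate one. Values are given as TPM, the tags at a position scaled to the same total of tags in every library, and they carry no correction for gene length.

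Libraries differed in how much they listed. They held between 637 positions (CB of the 10-yr females) and 23612 positions (CA1 of the 20-yr females), of which 229 to 4511 were start-proximal. The smallest listed value corresponded to 2 to 7 tags, so that 0 in the table means a value below that limit and a gene is described here as listed at 0. The number of listed positions differed between the hippocampal fields, as CA1 libraries held 6932, 11238.5 and 23612 positions at their lowest, median and highest, against 1663, 3421 and 7549 in DG. The cerebellum carried its marker genes. Summed over 12 listed genes of cerebellar granule and Purkinje cells, CB libraries held 2532, 3237 and 4189 TPM (lowest, median, highest), against 0, 68.3 and 771 TPM in the other 7 regions. Markers of dentate granule and CA1 pyramidal cells were summed together, with 2, 91.2 and 164 TPM over 8 listed genes in CA1 libraries, against 0, 118 and 382 TPM in DG libraries. Because this list holds markers of both fields, its sum cannot show whether they set the fields apart. Tissue is a mixture of cells, in which fewer cells of a type and less RNA per cell cannot be told apart.

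The start-proximal positions held more of the tags than of the rows. They carried 35.9% of all listed TPM, a mean of 195994 TPM per library, whereas positions upstream of the start held 17.8% (21997 rows), positions in the gene interior 21.0% (58943 rows) and positions in the last stretch of the gene, at or beyond a 0.8 share of its length, 25.3% (43632 rows). With the upstream positions, they were also seen again more often than the other classes. Of the start-proximal positions 36.7% were listed in more than 1 library, against 34.0% upstream, 19.5% in the interior and 20.6% at the gene end. Without the positions exactly on the start the start-proximal share was 33.8%, no higher than upstream. Within a library, the share of positions that any other library also listed was 18.4 percentage points higher for start-proximal than for interior positions and 18.2 points higher than for end positions, in 64 of 64 libraries each (exact sign-flip permutation test over the 8 animal groups, two-sided p = 0.00781, the smallest it allows, adjusted p = 0.0208 over 24 per-library tests). The median TPM of a listed start-proximal position exceeded that of interior positions by 0.32 on the log2 scale, in 60 of 64 libraries, and that of end positions by 0.32, in 53 of 64 (adjusted p = 0.0208 each by the same exact test).

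Most of these positions were nonetheless rare. In a single library only, 21886 of them (63.3%) were listed, and these held 8.67% of the start-proximal TPM. The 2113 positions listed in at least 8 libraries (6.11%) held 69.6% of it, 126 positions were listed in at least 32 libraries, and 1 was listed in all 64. The 15 highest positions alone held 22.6% of start-proximal TPM and the 100 highest held 42.1%.

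The positions crowded towards the annotated start. Between 0 and 100 nt there were 19465 (56.3%), carrying 60.4% of the start-proximal TPM, and 15131 (43.7%) lay between 101 and 500 nt. Density was 304.7 positions per nt at 11 to 20 nt, 87.6 per nt at 91 to 100 nt and 21.8 per nt at 451 to 500 nt, and beyond the limit, at 501 to 600 nt, it was 17.96 per nt, so the limit cut a tail and did not fall at a gap. Just upstream, at 11 to 20 nt before the start, density was 292.6 per nt. The innermost bases differed from this slope in the table itself. A total of 3275 positions sat exactly on the annotated start, and none were listed 1 to 10 nt to either side of it. Positions exactly on the start carried 13.02% of the start-proximal TPM, and 64.4% of them were listed in more than 1 library, compared with 40.5% at 11 to 20 nt, 31.6% at 91 to 100 nt and 29.7% at 451 to 500 nt. How start positions within 10 nt of an annotated start came to be recorded was not given in the sources used here, and its part in these values was not tested.

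**Figure D1:**
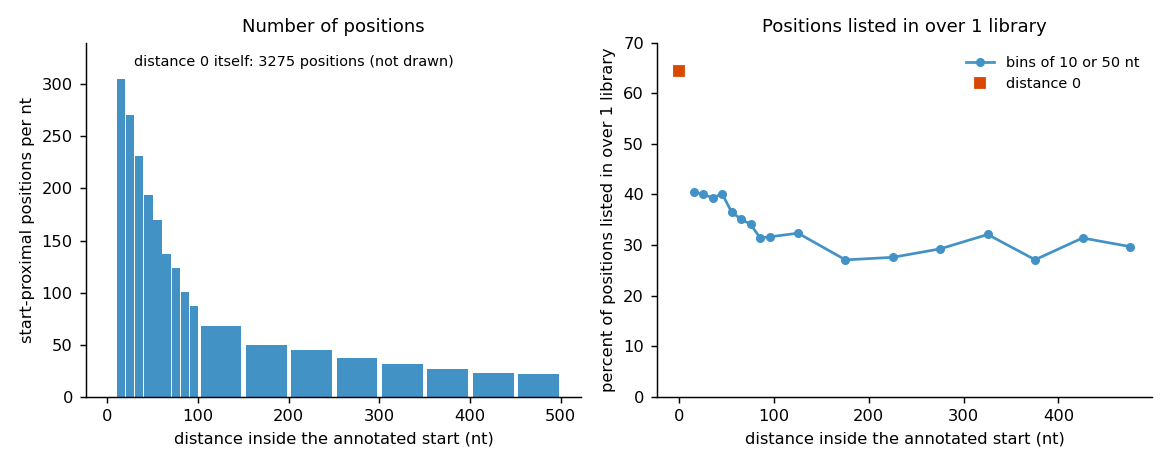
Start-proximal positions by distance inside the annotated start. The left panel shows positions per nt in bins of 10 nt up to 100 nt and of 50 nt beyond, with the 3275 positions at distance 0 left undrawn, and density declined from 304.7 per nt at 11 to 20 nt to 21.8 per nt at 451 to 500 nt. The right panel shows the percent of positions in each bin listed in more than 1 library, 64.4% at distance 0 (square) and 40.5% at 11 to 20 nt.

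The limit of 500 nt divided similar positions. Just inside it, at 499 nt, were positions of MRPS34, a protein of the mitochondrial ribosome, with a mean of 144.7 TPM over 64 libraries (listed in 31), and of DKK3, a secreted protein of the Dickkopf family, with 51.1 TPM (29). Just outside was a position of HRAS, a small GTPase, at 509 nt with 18.9 TPM (31). In 247 short genes the length rule ended the window before 500 nt, and these held 777 of the positions.

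Genes with a start-proximal position had a median length of 15857.5 nt, against 35384.5 nt for genes without. The share of rows that met the rule ran from 14.7% on chromosome 18 to 25.1% on chromosome 13, and 51.9% of the positions lay on the plus strand. A single start-proximal position was listed for 2340 of the 6588 genes (35.5%), the median was 2, and 926 genes had more than 10. The largest number was 84, in C1H1orf35, and UBB, a polyubiquitin gene, had 61. Most of these genes had start positions elsewhere too. Interior positions were listed for 68.6% of them, end positions for 58.8% and upstream positions for 51.2%. The median gene had 40.2% of its TPM at start-proximal positions, 1496 genes (22.7%) had at least 90% there, 811 had all of it there, and 1802 had under 10% there. Among all 13238 genes the position with the highest mean TPM was start-proximal in 3115 (23.5%), interior in 4450, at the gene end in 3744 and upstream in 1929. C1H1orf35 had 35.1% of its TPM at its 84 start-proximal positions, and TRIR had 99.5% at its 63.

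The authors built clusters separately in each library from start sites less than 20 bp apart, so neighbouring rows can be 1 promoter entered at different bases. Within a library only 1.18% of neighbouring start-proximal positions were closer than 20 nt, whereas with the libraries pooled 72.5% were. Between 66.2% and 93.6% of the genes with a start-proximal position in a library had only 1. Joining positions under 20 nt apart across libraries gave 14277 joined positions, of which 51.7% were listed in more than 1 library and 6 in all 64. Of the 534 joined positions listed in at least 32 libraries, 29 contained a single base position. The median number of base positions among them was 11, and the base used most often was the listed base in a median of 49.2% of the libraries.

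The highest start-proximal positions belonged to genes of many functions. Clusterin (CLU), a secreted chaperone made by astrocytes, had the highest mean of all, 8436 TPM over 64 libraries, at 153 nt inside its start (chromosome 8, minus strand, position 27761511 of the gene at 27744312 to 27761664, in the Ensembl coordinates of the MMUL assembly, as are all positions given here). The only position listed in all 64 libraries was at 103 nt in ENSMMUG00000005157, a gene without a symbol on chromosome 11, with a mean of 7289 TPM. It had 2103, 3823 and 5156 TPM at the lowest, median and highest CA1 library, against 8655, 11914 and 17429 TPM in OC, where it was highest, and the libraries of these regions did not overlap. GAP43, the growth-associated protein of axon terminals, had a mean of 4480 TPM at 207 nt (chromosome 2, plus strand, 35634891) and was listed there in 47 libraries.

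Among genes with a symbol, RTF1, a factor of transcription elongation, followed with a mean of 2939 TPM at 76 nt in 51 libraries. UQCC2, an assembly factor of respiratory complex III, had 2254 TPM at 35 nt in 53 libraries, listed in 8 of 8 CB and 8 of 8 PFC libraries and in 4 of 8 CA1 libraries. SON, a splicing cofactor of nuclear speckles, had 2225 TPM at 445 nt in 53 libraries and POLR2I, a subunit of RNA polymerase II, had 1398 TPM at 452 nt in 45. A strong start position could thus sit close to the limit of the window, with 98.7% of the TPM of SON and 94.2% of that of POLR2I at start-proximal positions. S100A1, a calcium-binding protein, had 2192 TPM at 312 nt in 35 libraries. The 15 highest also held 6 further positions of genes without a symbol, with means of 1285 to 3146 TPM, of which those of ENSMMUG00000001352 and ENSMMUG00000003444 were exactly on the start.

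For S100A1 and CLU the listed base moved between libraries while the gene stayed at a high level. S100A1 (chromosome 1, plus strand) had 3 such bases, 312, 326 and 330 nt inside its start at 132143821, 132143835 and 132143839. Of the 64 libraries 63 listed 1 of the 3 and none listed more than 1. The base at 330 nt was the one listed in 8 of 8 CA1 libraries, at 2242, 6045 and 7300 TPM (lowest, median, highest), and it was at 0 in 8 of 8 DG libraries. The base at 312 nt was at 0 in all CA1 libraries, against 0, 3600 and 5823 TPM in DG, where 7 of 8 listed it. So CA1 and DG of the same age and sex, adjoining fields of the hippocampus, differed in the listed base by 18 nt in 7 animal groups. Elsewhere the 312 nt base was listed in 8 of 8 OC, 7 of 8 PFC, 6 of 8 PC, 4 of 8 TC, 2 of 8 PCC and 1 of 8 CB libraries, and the 326 nt base was the one listed in 5 of 8 PCC and 4 of 8 CB libraries.

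CLU had 3 bases 3 nt apart, at 150, 153 and 156 nt, and each of the 64 libraries listed exactly 1 of them. The base at 153 nt was listed in 49 libraries and that at 156 nt in 4. The base at 150 nt was listed in 11 libraries, at 3985 to 11400 TPM, and all 11 were from females, 3 of the 8 libraries of 1 yr, 3 of 4 yr, 5 of 10 yr and none of 20 yr. GAP43 shifted in the same way in fewer libraries. Its base at 207 nt was listed in 8 of 8 OC and 7 of 8 DG libraries but in 2 of 8 CA1 libraries, and its base at 197 nt was listed in 5 libraries, 2 of them CA1 and none of them DG or OC.

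**Figure D2:**
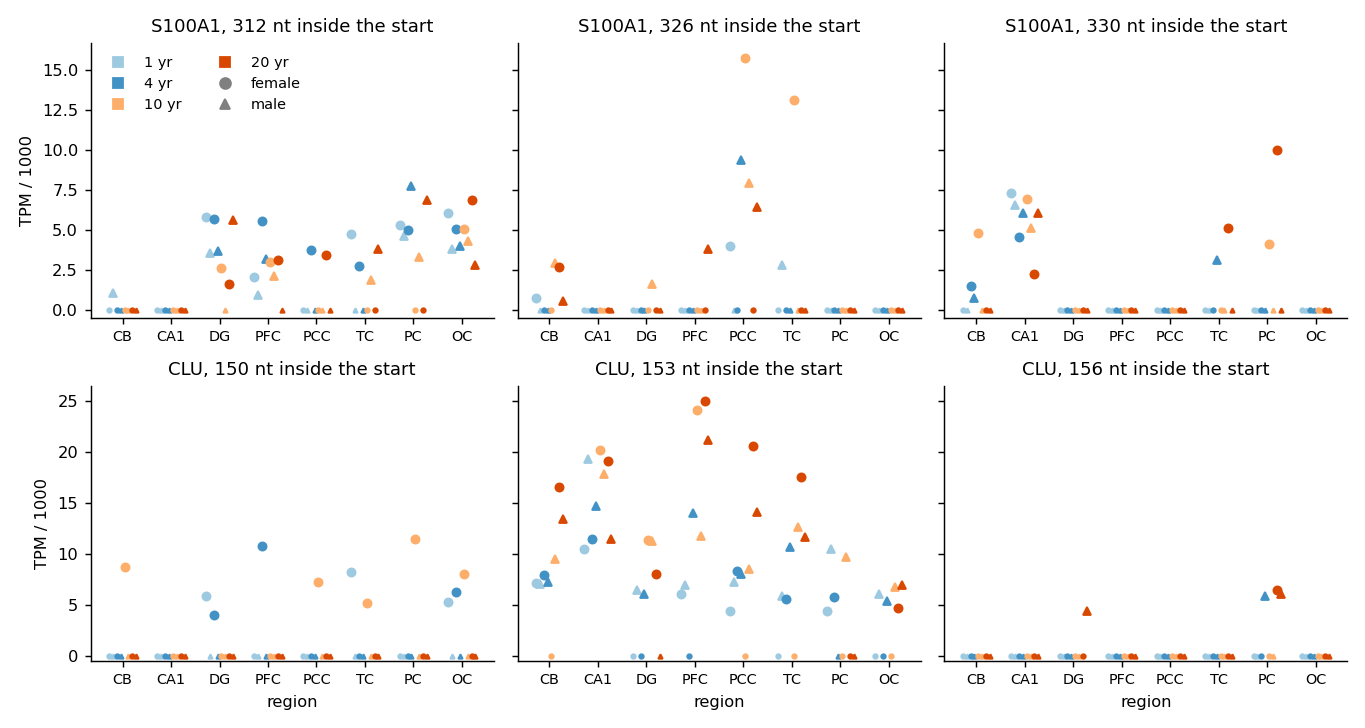
TPM at 3 neighbouring start-proximal bases of S100A1 (top) and CLU (bottom) in each of 64 libraries, by region, with age as colour and sex as marker shape; the vertical axis is TPM divided by 1000. All 8 CA1 libraries listed S100A1 at 330 nt (2242 to 7300 TPM) and none listed it at 312 nt, and the 11 libraries with CLU at 150 nt were all from females.

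Across regions, the mean start-proximal share of a library was lowest in CA1, which was the lowest region in 4 of 8 animal groups. Libraries listed between 637 and 23612 positions, and the part of this difference in the share was not tested. The percent of listed TPM at start-proximal positions averaged 35.75 ± 3.23 (SD, n = 64 libraries), between 24.3% and 42.2%. By region it ran from 32.25 ± 2.88% in CA1 to 37.76 ± 1.86% in PC (SD, n = 8 each), with CB at 35.60 ± 3.34% and DG at 36.67 ± 2.73%. The regions differed (F = 3.29, permutation test within animal groups, 100000 resamples, p = 0.00617, adjusted p = 0.0208 over 24 per-library tests), but this call was lost without the 20 highest genes (F = 1.65) and in 3 of the 8 fits that left out an animal group. Hippocampus and neocortex differed by -1.83 points, lower in hippocampus in 7 of 8 animal groups, and CB and the other 7 regions by -0.17 points, neither past the threshold (exact sign-flip permutation test, adjusted p = 0.225 and 0.929).

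The share of listed positions that were start-proximal was 25.56 ± 3.16% in CA1 (lowest 19.1%, median 26.3%, highest 29.3%) and 30.83 ± 1.86% in DG, with PCC the highest region at 33.50 ± 2.27% (SD, n = 8 each). The region difference passed (F = 5.91, permutation p = 6.0e-05, adjusted p = 0.00072), though not among the 500 highest positions of each library (F = 2.53). Hippocampal libraries averaged 28.19% and neocortical libraries 30.38%, with DG alone above the neocortical mean and CA1 below it. The difference of -2.18 points was lower in hippocampus in 7 of 8 animal groups and passed (exact sign-flip permutation test, adjusted p = 0.0469). This call was lost when only the 500 highest positions of each library were kept (+0.66 points), when positions at distance 0 were left out (-1.61), and under 4 further settings with values of -1.92 to -2.31, and it held in 1 of 8 fits that left out an animal group. CB exceeded the other 7 regions by 1.85 points without passing (adjusted p = 0.144 by the same exact test). The number of listed positions differed between libraries, and its part in this share was not tested.

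How the tags were spread inside the window differed most in CA1. Within 100 nt of the start lay 37.2%, 48.98% and 53.6% of the start-proximal TPM at the lowest, median and highest CA1 library, against 52.9%, 63.6% and 68.3% in DG. The means were 47.18 ± 6.06% in CA1 and 62.53 ± 4.71% in DG, and CA1 was below DG in 8 of 8 animal groups, by 15.35 ± 8.42 points (SD, n = 8), and the regions overlapped only between 52.9% and 53.6%. CB and the neocortical areas averaged between 59.25% (TC) and 63.75% (CB). The region difference passed (F = 8.44, permutation p = 2.0e-05, adjusted p = 0.00048), and hippocampus was lower than neocortex by 5.77 points in 8 of 8 animal groups (54.85 ± 9.51% over 16 libraries and 60.63 ± 4.26% over 40 libraries; exact sign-flip permutation test, p = 0.00781, the smallest it allows, adjusted p = 0.0208). DG alone, at 62.53%, lay above the neocortical mean, and CA1, at 47.18%, lay below it. The difference between hippocampus and neocortex did not pass with a limit of 300 nt (-5.40 points) or 1000 nt (-5.29 points). With CB at 63.75 ± 6.84%, the cerebellar difference of +4.77 points, in 6 of 8 animal groups, did not pass (adjusted p = 0.161 by the same exact test). CA1 libraries listed 2030 to 4511 start-proximal positions and DG libraries 540 to 2010; the part of this depth gap in the spread of tags was not tested.

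**Figure D3:**
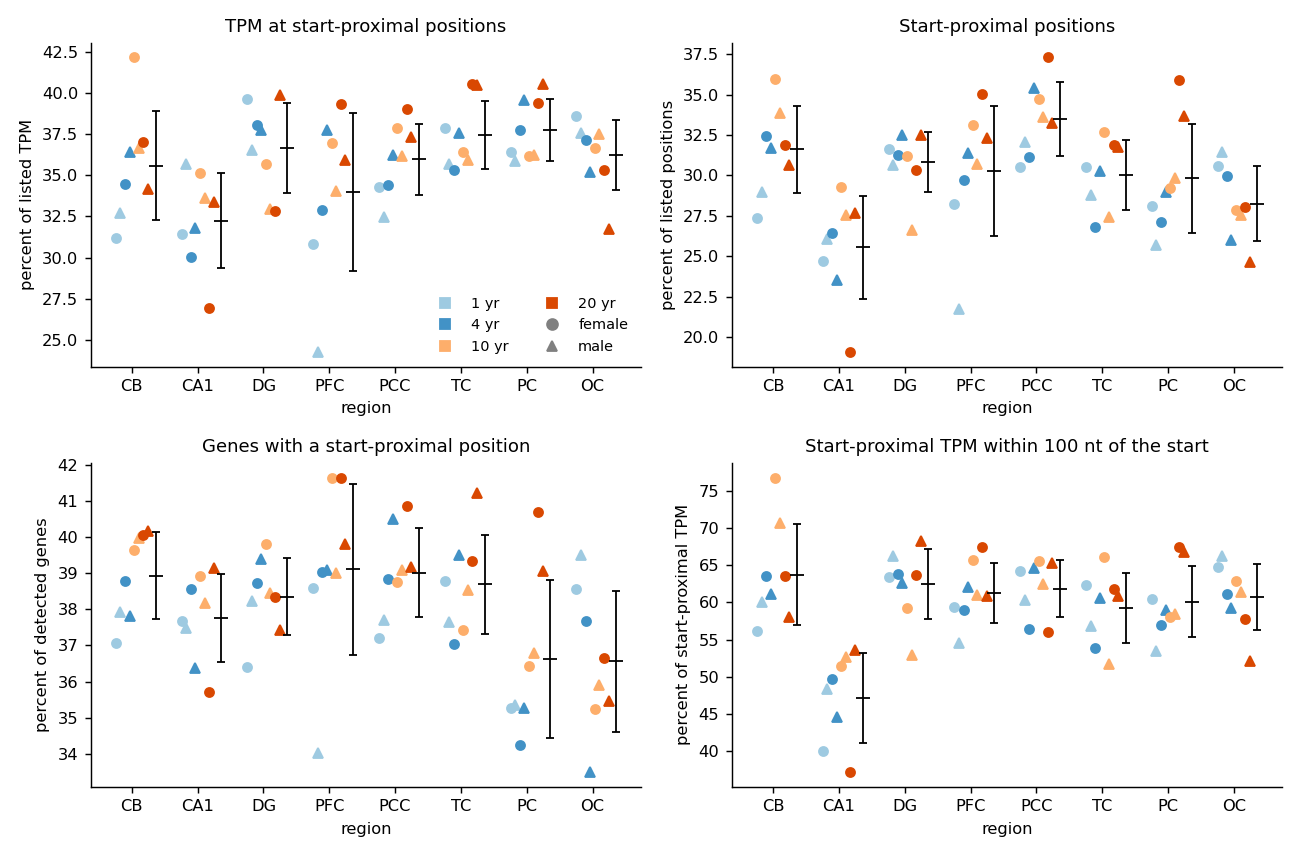
Per-library shares by region, 1 marker per library coloured by age and shaped by sex, with the mean ± SD of 8 libraries beside them. The 4 panels give the percent of listed TPM at start-proximal positions, the percent of listed positions that were start-proximal, the percent of detected genes with a start-proximal position, and the percent of start-proximal TPM within 100 nt of the start, where CA1 averaged 47.18% and DG 62.53%; the vertical axes do not start at 0.

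The positions were also unevenly spread over regions by number. CA1 listed 16886 of the 34596 positions, of which 9774 (57.9%) were listed in no other region, whereas the other regions listed between 3403 (PCC) and 8379 (TC) and had 24.8% (PCC) to 33.4% (TC) to themselves. Positions of all classes listed only in CA1 numbered 53538, of which 18.3% were start-proximal, beside 21.7% of all nuclear rows. For the other regions this percent was 17.9% (OC) to 21.8% (PCC). The part of the number of positions listed per library in these counts was not tested. In all 8 regions together 407 positions (1.18%) were listed, while 979 genes had some start-proximal position in every region, and 23201 positions belonged to a single region.

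The share of detected genes that had a start-proximal position was the measure that differed by age. At 1 yr the average was 37.34 ± 0.15% and at 4 yr 37.77 ± 0.13%, whereas animals of 10 yr had 38.36 ± 0.17% and animals of 20 yr had 39.05 ± 0.16% (SD, n = 2 animal groups per age, each the mean of 8 regions). Females and males lay within 0.24 points of each other at every age, and no animal group of an older age overlapped 1 of a younger age. The age difference passed at the smallest p that the design allows (F = 46.0, exact permutation of the 8 animal-group means over the ages, without regard to sex, p = 0.00952, adjusted p = 0.0229). The mean of 10 and 20 yr was 38.70% and that of 1 and 4 yr 37.56%, a difference of 1.15 points that was positive in 7 of 8 regions, with region values of -1.49 to 3.21 points. The number of detected genes per library moved with age as well, at 3118, 2877, 2339 and 2576 for 1, 4, 10 and 20 yr, and its part in the share was not tested. Without positions at distance 0 the age difference was smaller and no longer passed (F = 6.89, exact permutation p = 0.0476, adjusted p = 0.0952), and among the 500 highest positions of each library it did not pass either (F = 0.46, adjusted p = 0.771 by the same permutation test). For the other 3 shares the age difference did not pass (adjusted p of 0.229 to 0.533), nor did that between females and males for any of the 4 (adjusted p of 0.614 to 0.842, exact permutation tests with a smallest p of 0.0286).

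**Figure D4:**
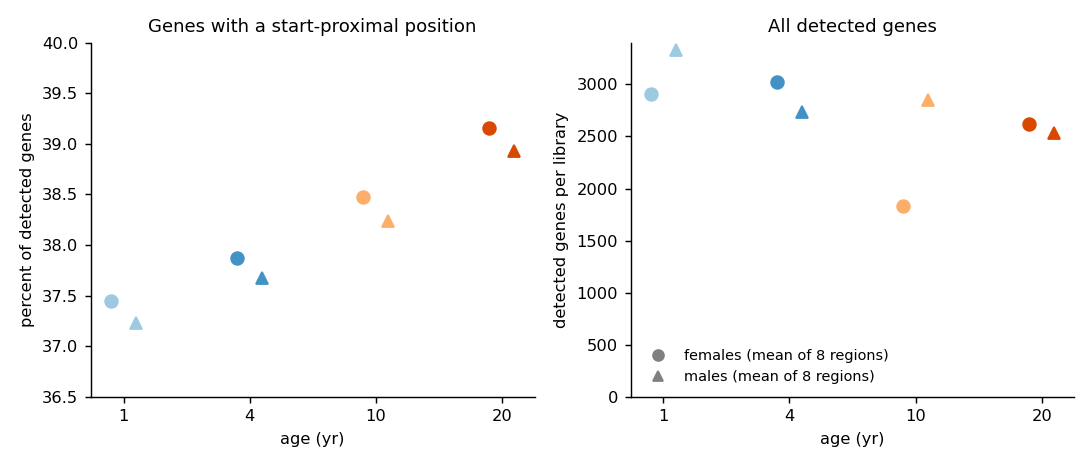
Percent of detected genes with a start-proximal position (left) and number of detected genes per library (right) by age in yr; each marker is the mean of 8 regional libraries of 1 animal group, circles for females and triangles for males. The share was 37.34% at 1 yr and 39.05% at 20 yr on average, and detected genes averaged 3118 at 1 yr and 2576 at 20 yr; the left axis does not start at 0.

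By region, this share was 38.93 ± 1.20% in CB (37.1%, 39.2% and 40.2% at the lowest, median and highest library), against 38.02 ± 1.89% in the other 7 regions (33.5%, 38.5% and 41.6%), a difference of 0.91 points in 7 of 8 animal groups (exact sign-flip permutation test, adjusted p = 0.0469), which turned to -0.41 points among the 500 highest positions of each library. The call held in 1 of 8 fits that left out an animal group, and CB libraries lay within the range of the other regions. The lowest regions were OC at 36.56 ± 1.95% and PC at 36.64 ± 2.19%, and the region difference passed (F = 3.40, permutation test, adjusted p = 0.0208; lost in 3 of 8 fits that left out an animal group), whereas hippocampus and neocortex differed by 0.05 points (adjusted p = 0.930 by the exact sign-flip test).

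Differences at single genes were tested with limma on log2(TPM + 1), across all positions listed in at least 8 libraries, 5603 in all, and again on the summed TPM of a gene in each position class, 7838 sums in all. The 2113 start-proximal positions and 2329 start-proximal gene sums that met this minimum are those listed often enough to test, not all of them. Changes below are log2 differences of (TPM + 1), which understate the change of low genes, and a difference counted as called where its p, adjusted by Benjamini-Hochberg over all features tested, was below 0.05.

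CBLN3 marked the cerebellum at its annotated start. This gene, a secreted cerebellin of granule cells, had start-proximal sums of 96.6, 619 and 976 TPM at the lowest, median and highest CB library, against 0, 0 and 1.69 TPM in the other 7 regions, where 1 of 56 libraries listed it. The groups did not overlap, and the difference was +8.87 ± 0.44 (SE, limma, adjusted p = 7.4e-06). Since 8 of the 9 libraries that listed it were from CB, CBLN3 met the minimum of 8 libraries only through the group where it is high. In all, 6 start-proximal sums were called, 4 higher and 2 lower in CB, or 0.258% of those tested, beside 0.396% of all gene sums (0.102% higher and 0.293% lower, limma). The median difference over all gene sums was -0.39, and quantile scaling, which brought it to -0.20, gave 8 calls, 4 higher and 4 lower. At single positions none were called (limma; 533 at an unadjusted p below 0.05, and 9 in a limma fit that used all 64 libraries with animal group as a term), beside 0.0535% of all positions. NEUROD1, a transcription factor of granule cells on the same marker list, had a difference of +5.34 that missed the threshold (limma, adjusted p = 0.0916).

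The other calls of CB overlapped more with the rest of the brain. FEZ1, an adaptor of axonal transport, had 35.2, 453 and 775 TPM in CB, against 0, 7.04 and 347 TPM in the other regions (+4.74 ± 0.72, limma, adjusted p = 0.0218). In 12 of the 16 other-region libraries that listed no start-proximal FEZ1 position, another position of the gene was listed. PPP4C, the catalytic subunit of protein phosphatase 4, had 98.1, 1439 and 4276 TPM in CB, against 0, 104 and 1775 TPM elsewhere (+4.73, limma, adjusted p = 0.04997). The gene without a symbol ENSMMUG00000031509 had 1009, 3593 and 6873 TPM in CB, against 0, 516 and 2802 TPM elsewhere (+3.80, limma, adjusted p = 0.0476). CRH, the corticotropin-releasing hormone, was listed at 0 in all 8 CB libraries, against 0, 41.0 and 1145 TPM in the other regions (41 of 56 listed it; limma, adjusted p = 0.0444). NPM3, a nucleoplasmin-family chaperone, had 0, 0 and 1.68 TPM in CB, against 0, 44.9 and 715 TPM elsewhere, and fell by 4.46 (limma, adjusted p = 0.0248). Of these 5 sums each was called in only 1 of the 8 fits that left out an animal group.

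Between hippocampus and neocortex, the start-proximal sum of the astrocyte gene GFAP was higher in hippocampus, and that of GAP43 was lower. Sums of myelin genes were also called higher, but these genes met the minimum of 8 libraries only through hippocampus, mainly CA1. Calls were made for 109 of the 2329 sums, 90 higher and 19 lower in hippocampus, or 4.68%, beside 4.07% of all gene sums (3.69% higher and 0.383% lower). Among the hippocampal libraries those of CA1 listed more positions, with 16886 start-proximal positions over CA1, 6153 over DG and 3403 to 8379 over the neocortical areas, and the median difference over all gene sums was +0.46, so differences are best read relative to that value. After quantile scaling, which brought the median to +0.05, 11 sums were called, 6 higher and 5 lower. Leaving out an animal group gave 26 calls without the 20-yr females to 88 without the 20-yr males, and the calls of MOBP, MBP, CFAP90 and GAP43 held in all 8 such fits, that of GFAP in 7.

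MOBP, MBP and MOG, all structural genes of myelin, were the 3 genes of the oligodendrocyte list that could be tested. Each met the minimum of 8 libraries only through hippocampus, so a higher value there was in part fixed by the filter. The listed hippocampal libraries were mainly from CA1, 8 of 8 against 2 of 8 in DG for MOBP, 7 against 1 for MBP and 5 against 1 for MOG, and the median of DG was 0 TPM for all 3, as in neocortex. MOBP had 0, 6.53 and 153 TPM in hippocampus (10 of 16 libraries listed), against 0, 0 and 3.9 TPM in neocortex (2 of 40), a difference of +2.81 (limma, adjusted p = 0.00238, and 0.0321 after quantile scaling). MBP had 0, 3.99 and 91.2 TPM, against 0, 0 and 28.3 TPM (+2.10, limma, adjusted p = 0.0133). Its main start positions lay outside the window, and at these MBP had 723 to 8022 TPM in every hippocampal and 47.1 to 7546 TPM in every neocortical library. MOG had 0, 0 and 64.2 TPM, against 0, 0 and 86.1 TPM (+1.71, limma, adjusted p = 0.0407), and kept its call in 2 of the 8 fits that left out an animal group. After quantile scaling MBP and MOG were no longer called (adjusted p = 0.126 and 0.109). Over the 7 listed genes of the oligodendrocyte list, with all their positions, hippocampal libraries held 736, 4522 and 8204 TPM, against 49.2, 1575 and 7569 TPM in neocortex, and the part of cell makeup in these sums was not tested.

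GFAP, the intermediate filament of astrocytes, had 0, 109 and 846 TPM in hippocampus (15 of 16 libraries), against 0, 1.8 and 163 TPM in neocortex (20 of 40), a difference of +3.72 in 7 of 8 animal groups (limma, adjusted p = 0.0133, and 0.0446 after quantile scaling). It was the only 1 of the 5 tested astrocyte genes to be called, and the list had a median of +0.25, against +0.46 for all gene sums. CFAP90, a protein of motile cilia, had 0, 68.7 and 316 TPM, against 0, 0 and 264 TPM (+3.55, limma, adjusted p = 0.00498). PCDH10, a protocadherin, had 0, 34.9 and 668 TPM, against 0, 0 and 523 TPM (+2.81, limma, adjusted p = 0.0216). GRIA2, an AMPA receptor subunit, had 0, 0 and 154 TPM, against 0, 0 and 155 TPM (+1.88, limma, adjusted p = 0.0321), and was the 1 call among 3 tested glutamatergic genes. GFAP was listed in 8 of 8 CA1 and 7 of 8 DG libraries, CFAP90 in 8 and 3, PCDH10 in 8 and 2, and GRIA2 in 5 and 2. CFAP90, with 11 of its 18 listed libraries hippocampal, and GRIA2, with 7 of 9, met the minimum of 8 libraries only through hippocampus.

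Further calls belonged to transcription factors and their partners. NEUROD6, a factor of pyramidal neurons, had 0, 116 and 564 TPM in hippocampus, against 0, 0 and 320 TPM in neocortex (+2.75, limma, adjusted p = 0.0444), listed in 8 of 8 CA1 and 3 of 8 DG libraries, ID4, an inhibitor of such factors, rose by 3.05 (limma, adjusted p = 0.0236), and TAF10, a subunit of the core promoter factor TFIID, rose by 2.07 (limma, adjusted p = 0.0275) as the only 1 of 9 tested core promoter factors. With an animal group left out, NEUROD6 and GRIA2 were called in 2 of 8 fits, ID4 in 4 and TAF10 in 5. None of these 3, nor GRIA2, was called after quantile scaling (adjusted p of 0.0642 to 0.258). TAF10, with 9 of its 13 listed libraries hippocampal, met the minimum of 8 libraries only through hippocampus.

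RPSA, a ribosomal gene, had 0, 27.2 and 137 TPM in hippocampus, against 0, 0 and 340 TPM in neocortex (+2.53, limma, adjusted p = 0.0414). On the lower side, GAP43 had 0, 3922 and 6963 TPM in hippocampus, against 0, 7674 and 12300 TPM in neocortex, and fell by 3.32 (limma, adjusted p = 0.00422, and 0.0693 after quantile scaling). CA1 libraries had 0, 1629 and 5705 TPM of GAP43, with 5 of 8 listed, and DG libraries had a median of 4626 TPM at its 207 nt base alone. In each of the 3 hippocampal libraries without a start-proximal GAP43 position, another position of the gene was listed. PDAP1 had 0, 0 and 753 TPM, against 0, 383 and 1550 TPM, and fell by 2.90 (limma, adjusted p = 0.0288, and 0.268 without positions at distance 0). No CA1 library listed it at a start-proximal position, whereas DG had a median of 532 TPM, above that of neocortex. All 9 hippocampal libraries with no start-proximal PDAP1 position listed another position of it. AAMP had 0, 0 and 266 TPM, against 0, 13.2 and 3637 TPM (fell by 2.96, limma, adjusted p = 0.0385), and ISCU, the scaffold of iron-sulfur cluster assembly, had 0, 148 and 527 TPM, against 37.7, 305 and 1184 TPM (fell by 2.21, limma, adjusted p = 0.0465). PDAP1 was called in 4, AAMP in 3 and RPSA in 2 of the 8 fits that left out an animal group. After quantile scaling PDAP1, AAMP and RPSA were no longer called (limma, adjusted p = 0.0690, 0.0693 and 0.0931).

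At single positions 14 were called between hippocampus and neocortex, 10 higher and 4 lower, or 0.663% of those tested, beside 0.535% of all positions (0.428% higher and 0.107% lower; 11 calls, 10 higher and 1 lower, after quantile scaling), and in 6 of the 14 the start-proximal sum of the gene was called too. The S100A1 base at 330 nt had 0, 1121 and 7300 TPM in hippocampus (8 of 16, all CA1), against 0, 0 and 9995 TPM in neocortex (4 of 40), a difference of +4.96 (limma, adjusted p = 0.00837). The position at 23 nt in ENSMMUG00000030508 had 0, 715 and 2609 TPM, against 0, 0 and 1077 TPM (+5.24, limma, adjusted p = 0.00269). The S100A1 base and this position met the minimum of 8 libraries only through hippocampus. Of the libraries that listed them, 8 of 15 and 9 of 11 were hippocampal. GAP43 at 207 nt fell by 3.24 (limma, adjusted p = 0.0478).

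CA1 and DG gave the most calls, and most of them were higher in CA1, the region with more listed positions. Of the 2329 start-proximal sums 279 were called, 245 higher and 34 lower in CA1, or 11.98%, beside 10.9% of all gene sums (10% higher and 0.944% lower). The median difference over all gene sums was +1.14, and quantile scaling, which brought it to +0.16, left 42 calls, 29 higher and 13 lower. Leaving out an animal group gave 104 calls without the 4-yr females to 344 without the 10-yr males. Values below are therefore set against a shift of +1.14. CLU, the highest gene, shows what this means. It had 10619, 16406 and 20205 TPM in CA1, against 4622, 6233 and 11811 TPM in DG, and its difference of +1.14 ± 0.14 (SE, limma, adjusted p = 0.00204) equalled the median of all gene sums and was +0.50 after quantile scaling (adjusted p = 0.315).

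Genes higher in CA1 beyond this shift included several with no start-proximal position in any DG library. MYG1 had 44.9, 122 and 194 TPM in CA1 and was listed at 0 in all 8 DG libraries (limma, adjusted p = 0.00109), and CEP126, a centrosomal protein, had 47.4, 66.5 and 230 TPM, against 0 in all 8 (limma, adjusted p = 0.00109). AATF, an apoptosis-antagonizing factor, had 3.09, 68.2 and 129 TPM, against 0 in all 8 (limma, adjusted p = 0.00372). Outside the window, 2 DG libraries listed MYG1, at up to 13 TPM, and 2 listed AATF, at up to 254 TPM, whereas none listed CEP126. CABP1, a neuronal calcium-binding protein, had 142, 260 and 456 TPM in CA1, against 0, 4.49 and 79.8 TPM in DG (+5.54 ± 1.05, limma, adjusted p = 0.0131). NEUROD6 had 94.2, 276 and 564 TPM, against 0, 0 and 230 TPM (+5.28, limma, adjusted p = 0.0213). CCDC28A and HDDC2 were each listed in 8 of 8 CA1 libraries and 1 of 8 DG libraries (+5.21 and +5.92, limma, adjusted p = 0.0045 and 0.00482), and RPL6, a protein of the large ribosomal subunit, had 0, 76.8 and 140 TPM, against 0, 0 and 7.56 TPM (+5.17, limma, adjusted p = 0.0112). All 8 of these kept their call after quantile scaling, and all but NEUROD6, called in 5, kept it in each of the 8 fits that left out an animal group.

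Other neuronal and glial genes on the CA1 side were called but lost their call after quantile scaling. NRSN1, a membrane protein of neuronal vesicles that the study itself discussed and that is therefore not an independent choice, had 24.7, 111 and 195 TPM in CA1, against 0, 0.825 and 171 TPM in DG (+4.58, limma, adjusted p = 0.0227, and 0.0522 after quantile scaling). ARC, an immediate-early gene of synaptic plasticity, had 0, 61.0 and 163 TPM, against 0 in all 8 DG libraries (limma, adjusted p = 0.0189, and 0.0619 after quantile scaling), 3 of which listed another position of it, at up to 178 TPM. MOBP had 3.45, 53.0 and 153 TPM, against 0, 0 and 9.75 TPM (+4.13, limma, adjusted p = 0.0241, and 0.176 after quantile scaling), MBP 0, 28.6 and 91.2 TPM, against 0, 0 and 7.98 TPM (+3.93, limma, adjusted p = 0.0113, and 0.0842), and SPARCL1, a matricellular protein of astrocytes, 6.06, 32.6 and 62.6 TPM, against 0, 0 and 10.2 TPM (+4.08, limma, adjusted p = 0.0139, and 0.0636). ARC, MOBP and MBP met the minimum of 8 libraries only through CA1, with 6 of 13, 8 of 13 and 7 of 12 listed libraries there. With an animal group left out, NRSN1 and ARC were called in 5 of 8 fits, MOBP in 4, and MBP and SPARCL1 in all 8. Marker sums moved the same way. Over all positions, oligodendrocyte genes held 4997, 6874 and 8204 TPM in CA1, against 736, 2806 and 4047 TPM in DG, and astrocyte genes 13542, 19124 and 23285 TPM, against 5830, 9084 and 15187 TPM, and their part in the gene differences was not tested.

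Against the general shift, a smaller set was lower in CA1. VTI1B, a SNARE protein of endosomal fusion, had 0, 0 and 67.4 TPM in CA1 (3 of 8), against 52.0, 588 and 1023 TPM in DG, and fell by 7.05 (SE 0.97, limma, adjusted p = 0.00393, and 0.0062 after quantile scaling). In the 5 CA1 libraries without a start-proximal VTI1B position another position of the gene was listed. NOL7, a nucleolar protein, had 3.67, 29.7 and 414 TPM, against 99.4, 692 and 1300 TPM (fell by 4.15, limma, adjusted p = 0.00808, and 0.029 after quantile scaling), and ACOT13, an acyl-CoA thioesterase, had 3, 39.1 and 357 TPM, against 316, 554 and 951 TPM (fell by 4.18, limma, adjusted p = 0.0125). USE1, a SNARE of the endoplasmic reticulum, had 0, 65.4 and 773 TPM, against 174, 1081 and 2073 TPM (fell by 4.10, limma, adjusted p = 0.0213). VTI1B, NOL7 and ACOT13 were called in all 8 fits that left out an animal group and USE1 in 3. After quantile scaling ACOT13 and USE1 were no longer called (limma, adjusted p = 0.0522 and 0.0750). The start-proximal sum of ENSMMUG00000005157, listed in every library, had 2112, 3843 and 5156 TPM, against 4237, 7729 and 9334 TPM (fell by 0.93, SE 0.16, limma, adjusted p = 0.0106, and 0.0244 after quantile scaling).

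PDAP1 was listed at 0 at start-proximal positions in all 8 CA1 libraries, against 0, 532 and 753 TPM in DG (limma, adjusted p = 0.00662), while its other positions held 143 to 513 TPM in all 8 CA1 libraries. FEZ1 had 0, 1.73 and 5.91 TPM in CA1, against 0, 74.7 and 158 TPM in DG (fell by 4.03, limma, adjusted p = 0.0273), with its other positions at 61.6 to 199 TPM in all 8 CA1 libraries. For these genes the start-proximal sum was low in CA1 libraries that listed the gene elsewhere. Of the 27 tested genes of the respiratory chain 2 were called, both lower in CA1. COX7B, a subunit of complex IV, had 0, 0 and 212 TPM, against 0, 261 and 758 TPM (fell by 6.16 in 6 of 8 animal groups, limma, adjusted p = 0.025, and 0.253 without positions at distance 0), and NDUFS4, of complex I, had 0, 3.09 and 67.7 TPM, against 0, 470 and 1371 TPM (fell by 4.95, limma, adjusted p = 0.033). With an animal group left out, COX7B was called in 3 of 8 fits and NDUFS4 in 2. Neither was called after quantile scaling (limma, adjusted p = 0.104 and 0.0754).

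**Figure D5:**
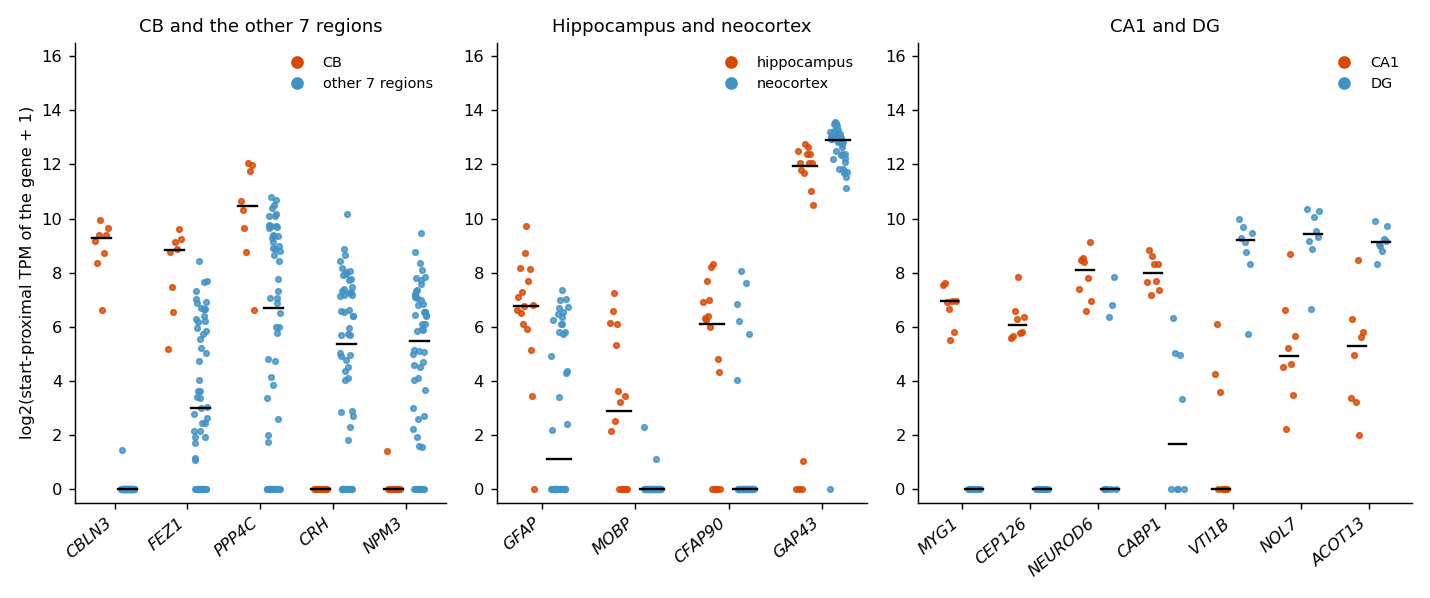
Summed start-proximal TPM, as log2(TPM + 1), of named genes in every library of the groups compared, with the median as a bar: CB and the other 7 regions (left), hippocampus and neocortex (middle), and CA1 and DG (right). The median of CBLN3 was 619 TPM for CB libraries and 0 TPM for the rest, and MYG1 and CEP126 were at 0 in all 8 DG libraries.

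At single positions 12 were called between CA1 and DG, 9 higher and 3 lower, or 0.568% of those tested, beside 0.803% of all positions (0.553% higher and 0.25% lower), and for 7 of the 12 the gene sum was called too. The S100A1 base at 330 nt led them (limma, adjusted p = 5.1e-06), and the base at 312 nt went the other way (limma, adjusted p = 0.0295). The base at 330 nt was listed in 15 libraries, 8 of them from CA1, and met the minimum of 8 libraries only through CA1. Since the 2 bases belong to the same gene and each library listed only 1, both calls record the same shift. CABP1 at 189 nt had 86.5, 242 and 408 TPM in CA1, against 0, 0 and 79.8 TPM in DG (+6.37, limma, adjusted p = 0.035), and FADS2, a fatty acid desaturase, at 61 nt had 2.44, 18.2 and 66.4 TPM, against 0, 0 and 13.2 TPM (+3.25, limma, adjusted p = 0.035, and 0.424 after quantile scaling). Leaving out an animal group kept the call of S100A1 at 330 nt in 8 of 8 fits, of CABP1 in 2 and of FADS2 in 1.

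Age and sex left few differences at single start-proximal features, with median differences over all gene sums of -0.24 for age and -0.16 for sex. Between 10 and 20 yr and 1 and 4 yr no gene sum was called (limma; 180 at an unadjusted p below 0.05; 0% of all gene sums) and no position (limma; 145 at an unadjusted p below 0.05; beside 0.0535% of all positions). Between females and males no gene sum was called (limma; 110 at an unadjusted p below 0.05; 0% of all gene sums). At single positions 2 of 2113 were called, 1 higher and 1 lower, beside 0.0535% of all positions (0.0178% higher and 0.0357% lower), and both were bases of CLU. The base at 150 nt was higher in females (+4.39) and that at 153 nt lower (-3.68; limma, adjusted p = 0.0187 each), at 3 of 4 ages. All 11 libraries that listed the base at 150 nt were from females, so it met the minimum of 8 libraries only through them. Each library listed only 1 CLU base, so the 2 calls are not independent. With positions under 20 nt joined, CLU differed between females and males by -0.06 (limma, adjusted p = 0.993), and after quantile scaling neither base was called (adjusted p = 0.0664 and 0.143). Each was called in 3 of the 8 fits that left out an animal group.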

How the data were processed

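CAGE libraries of poly(A) RNA were prepared by the authors for 8 brain regions, 4 ages and both sexes, after digestion of uncapped RNA, and sequenced as paired reads. The authors filtered the reads with FASTX-Toolkit, aligned them with TopHat2 to the MMUL assembly with Ensembl annotation, kept unique alignments, took the first base as the start site, clustered sites less than 20 bp apart within each sample and assigned clusters to genes. The deposited values, called TPM by the authors, are tags scaled to a common library total, that is RPM without length correction. They are not counts, so counting intervals are not given, and the smallest listed value limits what each library can show.

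Groups followed the sample labels. Regions were compared within animal groups of the same age and sex, because the methods state that every specimen gave all regions; this pairing comes from the design and was not inferred from the values, and it holds as far as the libraries of a group share animals. Per-library shares were tested by exact sign-flip or permutation tests, or by 100000 resamples within animal groups for the regions, with Benjamini-Hochberg adjustment over 24 tests. Positions and gene sums listed in at least 8 libraries were tested with limma 3.58.1 (R 4.3.3) on log2(TPM + 1), using the 8 within-group differences for regions and the 8 animal-group means with age and sex as terms for age and sex, with adjustment over all features; tests were tried on simulated data first. P-values measure the spread between animal groups, each described by the study as a pair of animals of matched age and sex. Other steps used Python 3.11.15, pandas 2.3.3 and SciPy 1.17.1.

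Genes were named by rule: the 15 highest positions, those listed in all 64 libraries, up to 10 called increases and decreases per comparison with the same sign in every animal group, up to 4 genes of each marker or pathway list by p, and genes named in the study. ISCU between hippocampus and neocortex, FEZ1 and PDAP1 between CA1 and DG, the single position of GAP43, the S100A1 and CLU bases compared by library, and the genes named for their number of positions were chosen after their values were seen. The members and lists were chosen with earlier results of these data known. Gene names came from the table and from a list of Ensembl symbols. Some results for genes named by the rule are not reported here. No genome of this assembly was used, so no sequence is shown and the planned look at sequence around the positions was not run. Alternatives covered other limits, minimum values, joining, scaling, filters, pseudocount, leaving out libraries or animal groups and fits without the block.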

Additional observations from a re-analysis of the deposited data

Results flagged for a closer look

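Of 80 groups of libraries examined for a value far from the others, 4 had one, and chance alone flags about 1 group in 20. The DG library of 10-yr males had 26.6% of its listed positions start-proximal, whereas the other 7 DG libraries had 30.4% to 32.5%. The PFC library of 1-yr males had a start-proximal position in 34.0% of its detected genes, whereas the other 7 PFC libraries had 38.6% to 41.6%. The median TPM of start-proximal positions exceeded that of interior positions by 1.03 on the log2 scale in the DG library of 20-yr males, with the other DG libraries at -0.07 to 0.28, and by 0.12 in the OC library of 20-yr males, with the other OC libraries at 0.38 to 0.60.

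The mitochondrial rows, which no comparison used, also held positions 0 to 500 nt inside a gene start. These were 388 rows of 16 genes, with a mean of 11748 TPM per library and 259 to 38236 TPM over the 64 libraries.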

How the results depend on the processing

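For the spread of tags within 100 nt of the start, hippocampus minus neocortex was -5.77 points, and -5.40 and -5.29 with limits of 300 and 1000 nt, where it did not pass. The region F of the TPM share was 1.65 without the 20 highest genes, and that of the share of positions was 2.53 among the 500 highest positions. Hippocampus minus neocortex in the share of positions lost its call with a limit of 1000 nt (-2.21), at 5 TPM or more (-1.92), joined (-2.23), without the 20 highest genes (-2.31) and without distance 0 (-1.61), and reversed among the 500 highest (0.66). CB minus the other 7 regions in the share of genes lost its call with a limit of 1000 nt (0.97), at 5 TPM or more (1.18), without the 20 highest genes (0.97) and without distance 0 (0.62), and reversed among the 500 highest (-0.41); the age F was 0.46 among the 500 highest and 6.89 without distance 0. Differences that were never called changed sign as follows: CB in the TPM share was 0.45 with a limit of 300 nt and 1.22 without the 20 highest genes, CB in the share of positions was -0.26 among the 500 highest, hippocampus minus neocortex in the share of genes was -0.042 with a limit of 1000 nt and -0.43 at 5 TPM or more, and female minus male among the 500 highest was -0.27, -1.2 and -1.10 for TPM, positions and genes. The exclusion of distance 0 was chosen after seeing the data. For changes other than fewer samples or features, the cause was not tested.

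Called start-proximal positions (main 0, 14, 12, 0 and 2 for CB, hippocampus against neocortex, CA1 against DG, age and sex) numbered 1, 0, 1, 9 and 11 with no filter. In a limma fit of all libraries they were 9, 41 and 75 for the 3 region comparisons, and after joining 12, 109 and 284, with 0 for sex. Without the PFC library of 20-yr females 9 were called between hippocampus and neocortex, quantile scaling left 6 between CA1 and DG and 0 for sex, and a minimum of 16 libraries left 0 for sex. Called gene sums (main 6, 109, 279, 0 and 0) numbered 1, 2 and 34 for the regions and 1 for age with no filter, 23, 169 and 425 in the fit of all libraries, 11 and 42 after quantile scaling for hippocampus against neocortex and CA1 against DG, and 69 between hippocampus and neocortex with a minimum of 16 libraries.

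The main region fits are paired within animal groups. With no replicate block, 9, 39 and 71 positions were called for CB, hippocampus against neocortex and CA1 against DG, and 22, 169 and 410 gene sums. The block changed the call of 9 of 75 named features and reversed none.

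Leaving out an animal group in turn gave 0 positions for CB, 2 to 10 for hippocampus against neocortex, 1 to 6 for CA1 against DG, 0 to 2 for age and 0 to 2 for sex, and 1 to 6, 26 to 88 and 104 to 344 gene sums for the regions. The region F ranged over 2.36 to 3.96 for the TPM share and 2.18 to 5.42 for the share of genes, and the age F of the share of positions over 1.56 to 16.9. Hippocampus minus neocortex ranged over -2.51 to -0.82 for TPM, -2.55 to -1.22 for positions and -0.15 to 0.46 for genes. CB minus the other 7 regions ranged over -1.02 to 0.43 for TPM and 0.76 to 1.10 for genes, and female minus male over -0.34 to 0.61 for TPM, -0.090 to 0.52 for genes and -0.53 to 1.19 for the spread within 100 nt. Of the 77 named and called features, 394 of 616 such fits kept the call, and 33 of 77 kept it after quantile scaling, 13 of 77 with no filter and 73 of 77 with a pseudocount of 0.25 TPM, with no reversal.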
